A study of Mus musculus with 23 samples.

Results

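The genes described here encode 56 ribosome biogenesis factors. Such proteins transcribe, cut and modify ribosomal RNA and fold it into the small and large ribosomal subunits. The genes were listed by symbol and function. Probes were matched through the systematic name of the array design, and the brightest probe was taken for each gene. Signal therefore chose the probe, and the list was drawn up with results of these arrays already known, so the counts below are a description of the listed genes. Of the 56 genes, 55 were measured among 19899 genes tested. The remaining 1, Utp18, had 1 probe that was well above background in the liver channel on 0 of 23 arrays, and it has no value here.

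Ribosome assembly starts in the nucleolus, where RNA polymerase I makes a long precursor RNA. Small nucleolar ribonucleoprotein particles (snoRNPs) modify that precursor, a large particle called the small subunit processome folds and cuts its leading part, and other factors build the large subunit around the rest. In liver the pathway is best known for its rise during regrowth after tissue loss or injury, and several of its genes are textbook targets of the transcription factor Myc.

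The study measured liver RNA of female B6C3F1 mice, an F1 hybrid strain, on 2-colour Agilent arrays. Gavage lasted 21 days. The control group of 5 mice got only the corn oil vehicle, and furan was given in that oil to groups of 4, 5, 4 and 5 mice at doses of 1, 2, 4 and 8 mg/kg body weight. All were bought at 5 to 6 weeks of age, and livers were taken 4 h after the last dose. Furan is a volatile ring compound that liver enzymes oxidise to a reactive dialdehyde. Each array carried Cy5-labelled liver RNA of 1 mouse against a Cy3-labelled universal mouse reference RNA, so every value below is a log2 ratio of liver to reference, or a difference between such ratios. A negative ratio means a weaker signal in liver than in the reference, and ratios of different genes are not compared with each other. The series text counts slightly more samples than these 23, and any others were not analysed here.

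The number of probes well above background in the liver channel ranged from 22010 to 30114 over the arrays, and 0 liver-channel spots were marked as saturated. All 8 hepatocyte markers examined stood far above the reference on all 23 arrays, Alb (albumin) at a log2 ratio of 6.25 to 7.57. The arrays lay on 5 slides. Pancreatic enzyme transcripts were high on 4 arrays, with marker averages of 3.42 and 3.29 above the control mean (log2) in 2 mg/kg replicates 1 and 5, 3.69 in 4 mg/kg replicate 1 and 2.59 in 8 mg/kg replicate 5, against at most 0.493 on the other arrays. Neutrophil markers averaged 2.83 above the control mean in 2 mg/kg replicate 4. The 4 arrays of slide 3, from 4 groups, had hepatocyte marker averages of 0.631 (control), 0.982 (1 mg/kg), 1.08 (2 mg/kg) and 0.792 (8 mg/kg), the highest of all arrays.

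At 8 mg/kg, 22 of the 55 measured genes were higher than in controls, 0 were lower and 33 did not pass (limma, Benjamini-Hochberg adjusted p under 0.05 over all genes). Among all genes tested, 4.25% passed as higher and 3.76% as lower. The median difference of the 55 genes was 0.21 on the log2 scale, against -0.03 for all genes, and 42 had an estimate above 0, against 44.8% of all genes. At an unadjusted p under 0.05, 32 of the 55 passed, against 20.9% of all genes. In 17 genes every 8 mg/kg liver lay above every control liver, against 4.44% of all genes, and in 0 did every 8 mg/kg liver lie below every control liver, against 4.32%. Of the 22, 6 exceeded 1.5-fold (Rrp12, Nop58, Ddx21, Rrp1b, Wdr12 and Nob1), against 324 of the 845 genes that passed as higher among all genes. The count of 22 was 14 without control replicate 2, 11 without control replicate 4, and 13, 12 and 11 without 8 mg/kg replicates 1, 2 and 4. It was 14 without the arrays of slide 3 and 19 without the 4 arrays rich in pancreatic transcripts. The genes that passed whichever single array was left out were 10: Rrp12, Nop58, Ddx21, Wdr12, Nob1, Tsr1, Wdr43, Bysl, Rrp15 and Nip7.

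**Figure D1:**
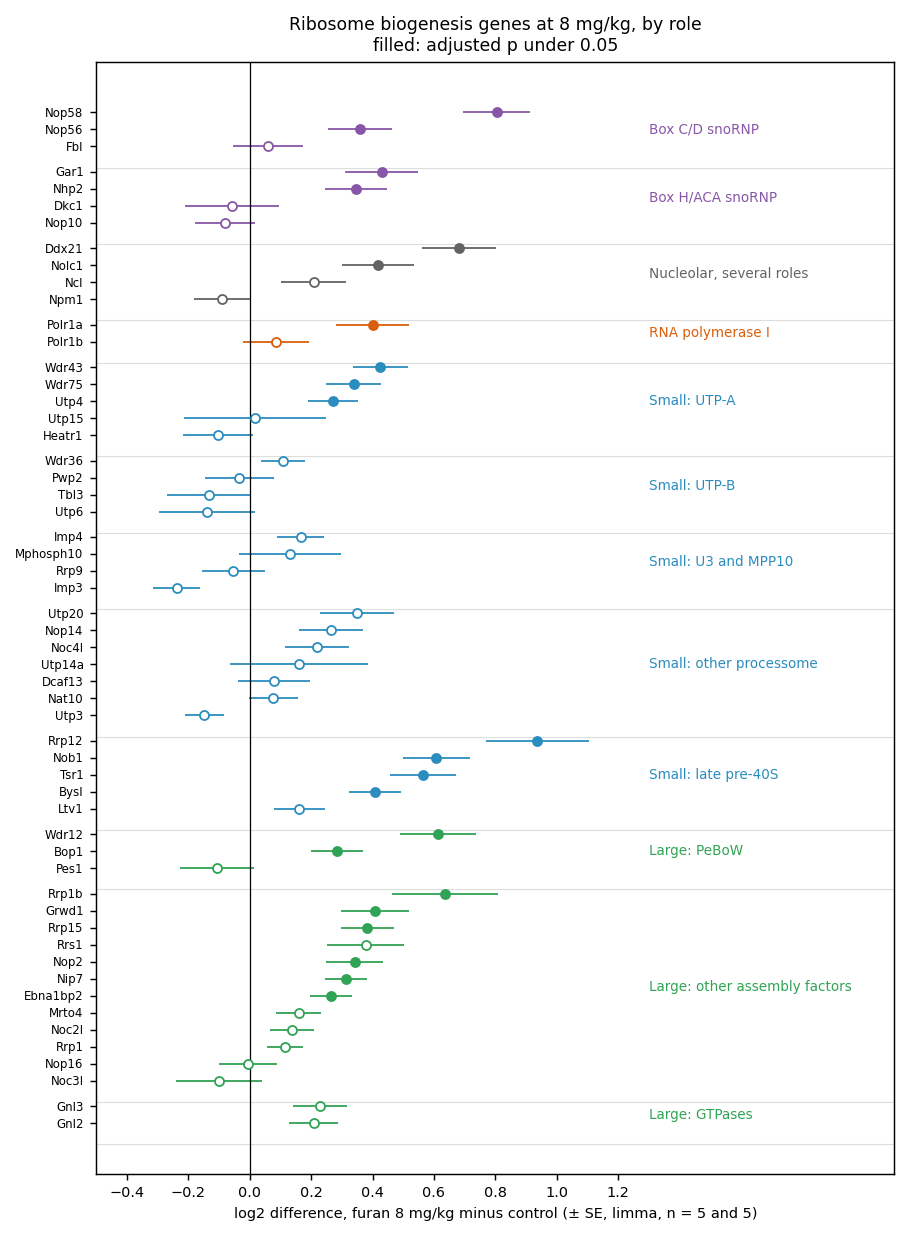
Difference in log2 ratio between 8 mg/kg and control livers (x axis) with its standard error from limma, for the 55 measured genes (rows) grouped by role; filled points passed an adjusted p of 0.05. The filled points all lie above 0 and are most crowded in the late pre-40S group, where 4 of 5 genes passed, while 0 of 4 UTP-B genes did. Of all genes, 4.25% passed as higher and 3.76% as lower.

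Promoter sequences (250 bases before to 50 after the annotated start site, RefSeq, build GRCm38.p6) were found for 46 of the 56 genes, matched by symbol. The E-box letters CACGTG, the core that Myc with its partner Max and several other factors bind, are their own reverse complement and were searched on both strands. They occurred in 10 of the 46 promoters (21.7%), against 8.09% of 27025 promoters of all genes, a comparison not matched for base composition. The 10 windows of 30 bases are shown because each holds the first E-box found in its promoter. Further E-boxes of a promoter were not counted. The E-box is in capitals, and each sequence is read 5′ to 3′ on the gene's strand.
Grwd1 (chr7:45830740-45830769, minus strand): aagggccggagtcgCACGTGtgaaaccgga
Imp4 (chr1:34439696-34439725, plus strand): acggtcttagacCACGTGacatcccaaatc
Ltv1 (chr10:13193092-13193121, minus strand): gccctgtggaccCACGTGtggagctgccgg
Nop2 (chr6:125131811-125131840, plus strand): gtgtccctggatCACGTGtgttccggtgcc
Pes1 (chr11:3963965-3963994, plus strand): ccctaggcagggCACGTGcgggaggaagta
Tsr1 (chr11:74898092-74898121, plus strand): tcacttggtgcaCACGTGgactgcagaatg
Utp18 (chr11:93885769-93885798, minus strand): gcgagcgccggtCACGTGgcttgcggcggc
Utp20 (chr10:88826765-88826794, minus strand): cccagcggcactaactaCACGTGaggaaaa
Utp4 (chr8:106893643-106893672, plus strand): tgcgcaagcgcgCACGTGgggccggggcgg
Wdr43 (chr17:71616220-71616249, plus strand): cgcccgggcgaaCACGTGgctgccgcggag
Of the 20 genes with a promoter sequence that passed at 8 mg/kg, 5 held the E-box (Grwd1, Nop2, Tsr1, Utp4 and Wdr43), and of the 26 that did not pass or were not measured, 5 held it.

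The ETS-type letters CCGGAA, or TTCCGG on the other strand, were present in 22 of the 46 promoters (47.8%), against 16.7% of all promoters. They were found in 12 of the 20 genes that passed and in 10 of the 26 others. The CCAAT letters (or ATTGG) were in 37.0% of the 46, against 41.1% of all promoters, and the TATAAA letters (or TTTATA) in 4.35%, against 15.7%. The CRE letters TGACGTCA were in 2.17%, against 2.03%, and GCATGC in 10.9%, against 8.93%. The 250 bases before the start sites of Nop58 and Gar1, the snoRNP genes that rose most in each class, are shown with CCGGAA or TTCCGG in capitals.
Nop58 (chr1:59684756-59685005, plus strand): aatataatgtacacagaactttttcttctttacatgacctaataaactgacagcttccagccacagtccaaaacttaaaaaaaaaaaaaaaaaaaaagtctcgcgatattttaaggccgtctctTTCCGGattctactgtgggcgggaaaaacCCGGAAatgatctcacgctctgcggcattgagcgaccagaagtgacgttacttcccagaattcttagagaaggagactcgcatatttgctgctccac
Gar1 (chr3:129831397-129831646, minus strand): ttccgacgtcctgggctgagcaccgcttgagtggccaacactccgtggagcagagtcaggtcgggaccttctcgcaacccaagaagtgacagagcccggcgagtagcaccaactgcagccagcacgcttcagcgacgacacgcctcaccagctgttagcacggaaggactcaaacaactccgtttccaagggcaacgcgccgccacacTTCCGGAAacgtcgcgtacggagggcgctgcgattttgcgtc
The Nop58 sequence holds 2 separate matches. The Gar1 sequence also holds 2, which overlap in 1 stretch of capitals. A match of letters is a description of the sequence, and binding at these sites was not measured.

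Nop58 and Nop56 form the scaffold of the box C/D snoRNPs, which guide ribose methylation of ribosomal RNA, and Fbl (fibrillarin) is the methyltransferase of that particle. Nop58 had the smallest adjusted p of all 55 genes. Its log2 ratios were -1.83, -1.70, -1.72, -1.84 and -1.93 in 8 mg/kg livers, against -2.80, -2.49, -2.58, -2.82 and -2.36 in control livers. The lowest 8 mg/kg liver thus stood well above the highest control. The difference was 0.80 ± 0.11 (SE), or 1.75-fold, with an adjusted p of 0.000122 (limma). Mean ratios at 1, 2 and 4 mg/kg were -2.60, -2.41 and -2.32, and the 4 mg/kg mean lay nearer to the control mean than to the 8 mg/kg mean. Nop56 rose by 0.36 ± 0.10 (adjusted p = 0.0356, limma), again with no overlap between the groups, but it did not pass without 8 mg/kg replicates 2, 3 or 4, or without control replicates 1 or 4. Fbl differed by 0.06 ± 0.11 (adjusted p = 0.847, limma): its 8 mg/kg values of -1.15 to -0.80 lay inside the control range of -1.30 to -0.79.

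The box H/ACA snoRNPs guide pseudouridylation, and their proteins also belong to telomerase. Dkc1 (dyskerin) is the pseudouridine synthase, with Nhp2, Nop10 and Gar1 as its partners. Gar1 ratios were -1.35, -1.19, -1.26, -1.32 and -1.64 in 8 mg/kg livers, against -1.75, -1.84, -1.68, -1.95 and -1.70 in control livers. Every 8 mg/kg liver exceeded every control, the closest pair being 8 mg/kg replicate 5 and control replicate 3. Gar1 rose by 0.43 ± 0.12, or 1.35-fold (adjusted p = 0.0282, limma), and did not pass without 8 mg/kg replicates 1, 2, 3 or 4, or without control replicates 2 or 4. Means at 1, 2 and 4 mg/kg were -1.85, -1.62 and -1.65. Nhp2 rose by 0.35 ± 0.10 (adjusted p = 0.0366, limma), and its groups overlapped through control replicate 1. It did not pass without 8 mg/kg replicates 1, 2, 3 or 4, or without control replicates 2, 4 or 5. Dkc1 and Nop10 had estimates of -0.06 ± 0.15 and -0.08 ± 0.10 (adjusted p = 0.895 and 0.723, limma). Over both particles 4 of 7 proteins were higher and 0 lower, against 4.25% and 3.76% of all genes.

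Ddx21, an RNA helicase that acts in both polymerase I transcription and precursor processing, had ratios of 0.20, 0.05, 0.26, -0.22 and 0.09 in 8 mg/kg livers, against -0.58, -0.47, -0.88, -0.54 and -0.55 in control livers. The groups did not overlap. Ddx21 rose by 0.68 ± 0.12, or 1.6-fold (adjusted p = 0.00146, limma), while its means at 1, 2 and 4 mg/kg were -0.59, -0.47 and -0.42, against a control mean of -0.60. Nolc1, a nucleolar phosphoprotein that chaperones snoRNPs, had -2.06, -2.03, -2.11, -2.17 and -2.43 in 8 mg/kg livers, against -2.83, -2.55, -2.62, -2.62 and -2.27 in control livers. Here 8 mg/kg replicate 5 fell below control replicate 5, and the other 8 mg/kg livers were above all controls. Nolc1 rose by 0.42 ± 0.12 (adjusted p = 0.0308, limma), and its means at 1, 2 and 4 mg/kg were -2.77, -2.49 and -2.54. It did not pass without 8 mg/kg replicates 1, 2, 3 or 4, or without control replicates 1, 2, 3 or 4. A further Nolc1 probe gave a smaller value, described below.

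The abundant nucleolar proteins gave smaller values. Ncl (nucleolin), which binds nascent precursor RNA, differed by 0.21 ± 0.11 (adjusted p = 0.268, limma) and Npm1 (nucleophosmin), a chaperone of the outer nucleolus, by -0.09 ± 0.09 (adjusted p = 0.644, limma). A further Ncl probe gave another value, described below. Of the catalytic subunits of RNA polymerase I, Polr1a rose by 0.40 ± 0.12 (adjusted p = 0.0416, limma), with 8 mg/kg values of -0.88 to -0.41 and control values of -1.28 to -0.93 that did not overlap. It did not pass without 8 mg/kg replicates 1, 2 or 5, or without 2 mg/kg replicate 3, or without 1 mg/kg replicate 3, or without control replicates 1, 2, 3 or 4. Polr1b differed by 0.09 ± 0.11 (adjusted p = 0.731, limma).

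Among the 25 measured small subunit factors, 13 had an unadjusted p under 0.05 at 8 mg/kg, against 20.9% of all genes. At an adjusted p under 0.05, 7 were higher and 0 lower, against 4.25% and 3.76% of all genes. Those that rose were 3 of 5 UTP-A proteins, the complex that loads onto the precursor first, and 4 of 5 late pre-40S factors, which act on the nearly finished particle. Of the others, 0 of 4 UTP-B proteins, 0 of 4 proteins of the U3 snoRNP and its MPP10 complex, and 0 of 7 other processome proteins passed (limma), with 0, 2 and 4 at an unadjusted p under 0.05. Median differences were 0.27 for UTP-A, -0.08 for UTP-B, 0.04 for U3 and MPP10, 0.16 for the other processome proteins and 0.56 for the late pre-40S factors, against -0.03 for all genes. Whether these groups of 4 to 7 genes differ from each other was not tested.

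In UTP-A, Wdr43 ratios were -0.60, -0.65, -0.90, -0.93 and -0.95 in 8 mg/kg livers, against -1.37, -1.14, -1.35, -1.32 and -0.98 in control livers. The groups did not overlap, though 8 mg/kg replicate 5 and control replicate 5 were close. Wdr43 rose by 0.42 ± 0.09 (adjusted p = 0.00529, limma), and its means at 1, 2 and 4 mg/kg were -1.30, -1.17 and -1.13. Wdr75 rose by 0.34 ± 0.09 (adjusted p = 0.0251, limma) and Utp4, also known as cirhin, by 0.27 ± 0.08 (adjusted p = 0.0457, limma). Utp4 passed in 9 of the 23 fits that left out 1 array, and Wdr75 did not pass without 8 mg/kg replicates 1 or 4, or without control replicates 2 or 4. Utp15 and Heatr1, which belong to the same complex, had estimates of 0.02 ± 0.23 and -0.10 ± 0.11. The Utp15 probe was well above background on 18 of 23 arrays, and it had the largest standard error of the 55 genes.

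Imp3, a protein of the complex that places U3 on the precursor, had the lowest estimate of the 55 genes. Its ratios were -0.07, 0.07, 0.01, -0.02 and -0.12 in 8 mg/kg livers, against 0.01, 0.25, 0.32, 0.22 and 0.27 in control livers. Control replicate 1 lay among the 8 mg/kg values, and the other 4 controls were above all of them. The difference was -0.24 ± 0.08 (adjusted p = 0.0617, limma), and the means at 1, 2 and 4 mg/kg were 0.11, 0.13 and 0.09. Its partners gave 0.17 ± 0.08 (Imp4) and 0.13 ± 0.17 (Mphosph10), and the U3-specific protein Rrp9 gave -0.05 ± 0.10. The UTP-B proteins Pwp2, Tbl3, Utp6 and Wdr36 ranged from -0.14 (Utp6) to 0.11 (Wdr36). The other processome proteins ranged from -0.15 (Utp3) to 0.35 (Utp20, adjusted p = 0.0833, limma), with Nop14, Noc4l, Utp14a, Dcaf13 and the RNA acetyltransferase Nat10 between them.

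Rrp12, a repeat protein needed in yeast for export of pre-ribosomes from the nucleus, had the highest estimate of the 55 genes. Its ratios were -0.17, -0.38, -0.17, -0.09 and -0.29 in 8 mg/kg livers, against -0.78, -0.99, -1.47, -1.23 and -1.32 in control livers. All 8 mg/kg livers stood above all controls. Rrp12 rose by 0.94 ± 0.17, or 1.91-fold (adjusted p = 0.00149, limma). The lower doses were more spread: -0.87, -1.19, -1.13 and -0.34 at 1 mg/kg, -0.72, -0.40, -0.69, -0.24 and -1.02 at 2 mg/kg and -0.39, -0.60, -0.63 and -0.11 at 4 mg/kg. At 4 mg/kg all 4 livers also exceeded all controls, with a difference of 0.72 ± 0.18, but the adjusted p was 0.129 (limma). With normexp background correction of the median signals the 8 mg/kg difference was 0.36 (adjusted p = 0.112, limma).

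Nob1 is the endonuclease that makes the final cut of small subunit RNA. Its ratios were -0.25, -0.29, -0.81, -0.46 and -0.57 in 8 mg/kg livers, against -1.15, -0.96, -1.31, -1.13 and -0.86 in control livers, with 8 mg/kg replicate 3 lowest and only just above the highest control. Nob1 rose by 0.61 ± 0.11, or 1.52-fold (adjusted p = 0.00167, limma). Its means at 1, 2 and 4 mg/kg were -1.26, -0.96 and -1.01, near the control mean of -1.08. With normexp correction its 8 mg/kg difference was 0.35 (adjusted p = 0.0669, limma). Tsr1, a GTPase-like protein of the late particle, had -0.28, -0.40, -0.91, -0.66 and -0.56 in 8 mg/kg livers, against -0.96, -1.10, -1.32, -1.24 and -1.0 in control livers. Replicate 3 was again the lowest 8 mg/kg liver, and the groups did not overlap. Tsr1 rose by 0.56 ± 0.11 (adjusted p = 0.00274, limma), with means of -1.25, -1.08 and -0.88 at 1, 2 and 4 mg/kg.

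Bysl (bystin), known in yeast as Enp1 and present on both early and late particles, had -0.27, -0.24, -0.47, -0.40 and -0.31 in 8 mg/kg livers, against -0.61, -0.65, -0.87, -0.91 and -0.68 in control livers. The groups did not overlap, and Bysl rose by 0.41 ± 0.08 (adjusted p = 0.00492, limma). Its means at 1, 2 and 4 mg/kg were -0.63, -0.68 and -0.53. Ltv1, an assembly factor released late from the particle, differed by 0.16 ± 0.08 (adjusted p = 0.274, limma). It was the only late pre-40S factor listed that did not pass.

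Among the 17 large subunit factors, 8 were higher at 8 mg/kg and 0 lower, against 4.25% and 3.76% of all genes. An unadjusted p under 0.05 was found for 12, against 20.9% of all genes. The PeBoW complex, which is needed for the cleavages that release large subunit RNA, was split. Wdr12 ratios were -0.56, -0.47, -0.13, -0.33 and -0.52 in 8 mg/kg livers, against -0.98, -0.86, -1.24, -1.03 and -0.97 in control livers, with no overlap. Wdr12 rose by 0.61 ± 0.12, or 1.53-fold (adjusted p = 0.00386, limma), and Bop1 by 0.28 ± 0.09 (adjusted p = 0.0437, limma). Bop1 passed in 9 of the 23 fits that left out 1 array. Pes1 (pescadillo) had -1.27, -1.25, -1.19, -1.22 and -1.32 in 8 mg/kg livers, against -0.76, -1.20, -1.21, -1.19 and -1.35 in control livers. Here the 8 mg/kg livers were tightly grouped inside the control range, and control replicate 1 stood apart from the other controls. The Pes1 difference was -0.11 ± 0.12 (adjusted p = 0.697, limma). At 1, 2 and 4 mg/kg the means of Wdr12 were -0.86, -0.80 and -0.57 and those of Pes1 -0.93, -1.04 and -0.95.

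Of the 12 large subunit factors other than PeBoW and the GTPases Gnl2 and Gnl3, 6 were higher and 0 lower. The shares of all genes were 4.25% and 3.76%. Rrp1b, a nucleolar protein of early large subunit particles, had -1.81, -1.39, -1.21, -1.46 and -1.56 in 8 mg/kg livers, against -1.89, -2.18, -2.18, -2.08 and -2.28 in control livers. The groups did not overlap, with 8 mg/kg replicate 1 nearest to the controls. Rrp1b rose by 0.64 ± 0.17, or 1.55-fold (adjusted p = 0.0263, limma), and its means at 1, 2 and 4 mg/kg were -1.96, -1.84 and -2.03. It did not pass without 8 mg/kg replicates 2, 3 or 4, or without control replicates 2, 3 or 5, and its difference was 0.31 (adjusted p = 0.197, limma) with normexp correction. Its relative Rrp1 differed by 0.11 ± 0.06 (adjusted p = 0.269, limma). Grwd1, a chaperone that carries histones and a ribosomal protein, had -0.52, -0.58, -0.98, -0.60 and -0.76 in 8 mg/kg livers, against -0.96, -0.99, -1.21, -1.31 and -1.0 in control livers. Replicate 3 of the 8 mg/kg group lay within the control range and the other 4 above it, and Grwd1 rose by 0.41 ± 0.11 (adjusted p = 0.0269, limma), with means of -1.13, -1.12 and -0.99 at 1, 2 and 4 mg/kg. It did not pass without 8 mg/kg replicates 1, 2 or 4, or without control replicates 3 or 4.

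Smaller rises were found for Rrp15 (0.38 ± 0.09), the rRNA methyltransferase gene Nop2 (0.34 ± 0.09), Nip7 (0.31 ± 0.07) and Ebna1bp2 (0.27 ± 0.07), with adjusted p of 0.00841, 0.028, 0.00649 and 0.0204 in that order (limma). Rrp15 and Nip7 passed in all 23 fits that left out 1 array, whereas Nop2 did not pass without 8 mg/kg replicates 1, 2 or 4, or without control replicates 1, 3 or 4, and Ebna1bp2 not without 8 mg/kg replicates 3 or 4, or without control replicates 2 or 4. Rrs1, which helps to bring the small RNA of the large subunit into the particle, had every 8 mg/kg liver above every control but did not pass, with 0.38 ± 0.12 and an adjusted p of 0.0685 (limma). The GTPases Gnl2 and Gnl3 (nucleostemin) had estimates of 0.21 ± 0.08 and 0.23 ± 0.09 (adjusted p = 0.123 and 0.128, limma). Mrto4, Noc2l, Nop16 and Noc3l ranged from -0.10 (Noc3l) to 0.16 (Mrto4).

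**Figure D2:**
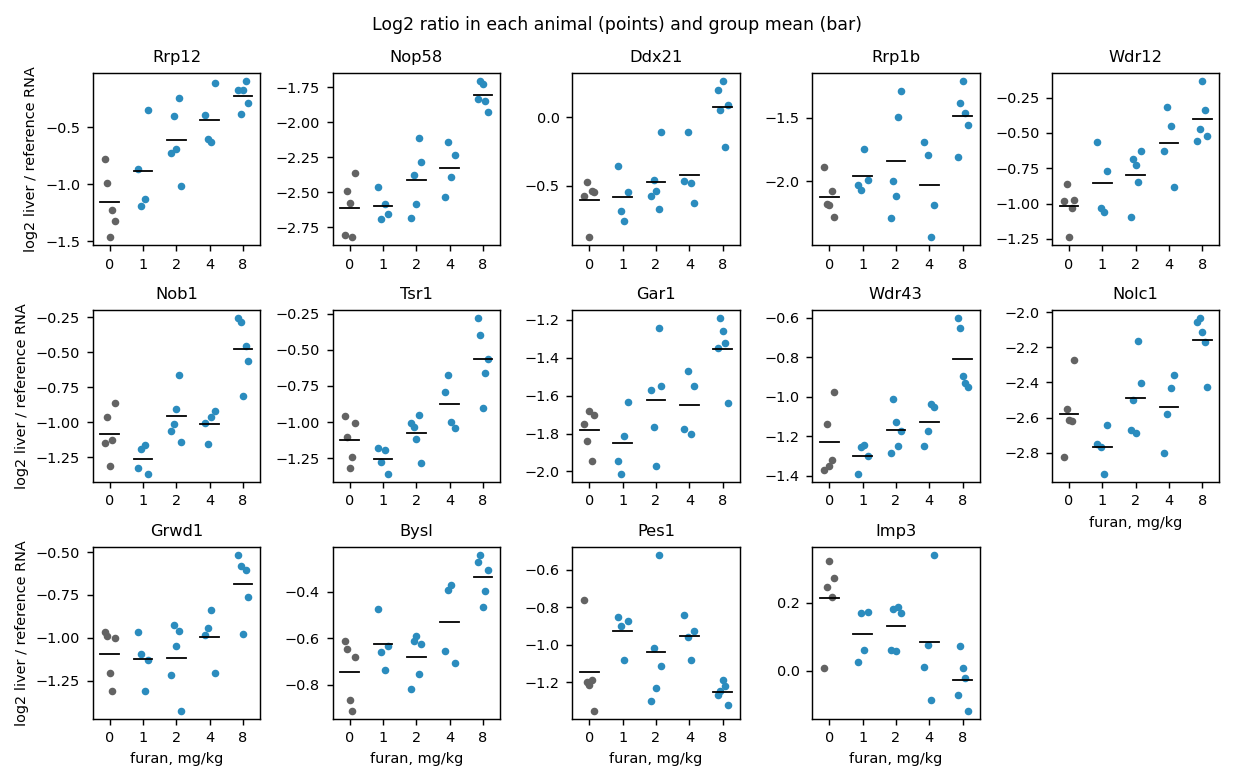
Log2 ratio of liver to reference RNA in each mouse (points) and group mean (bar) by furan dose in mg/kg, for the 12 genes with the largest rise at 8 mg/kg and for the lowest large and small subunit factors, Pes1 and Imp3; each panel has its own axis. In 10 of the 12 leading genes the 8 mg/kg points do not overlap the control points, and in Nolc1 and Grwd1 they do. The 12 were chosen for their 8 mg/kg difference on these same arrays, so little overlap follows from the choice. Of all genes, 4.44% had every 8 mg/kg liver above every control.

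At 8 mg/kg 7 of 25 small subunit factors (median difference 0.16) and 8 of 17 large subunit factors (median 0.27) were higher. In either class 0 were lower, and each class had 6 genes with every 8 mg/kg liver above every control. Of all genes, 4.25% passed as higher and 3.76% as lower, and 4.44% had every 8 mg/kg liver above every control. When each gene was set to its control mean and averaged over the class in each animal, small subunit factors averaged 0.177 ± 0.073 in 8 mg/kg livers and 0 ± 0.085 in control livers (SD, n = 5 each). Large subunit factors averaged 0.250 ± 0.049 in 8 mg/kg livers and 0 ± 0.052 in control livers, and snoRNP proteins 0.266 ± 0.071 and 0 ± 0.116 in the same groups. The control means are 0 by construction. For the large subunit and snoRNP classes the lowest 8 mg/kg liver (0.196 and 0.156) was above the highest control (0.073 and 0.140), and for the small subunit class the lowest 8 mg/kg liver (0.086) was below the highest control (0.100). The small subunit average minus the large subunit average was -0.113 to -0.008 in 8 mg/kg livers and -0.062 to 0.082 in control livers, so these ranges overlapped.

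**Figure D3:**
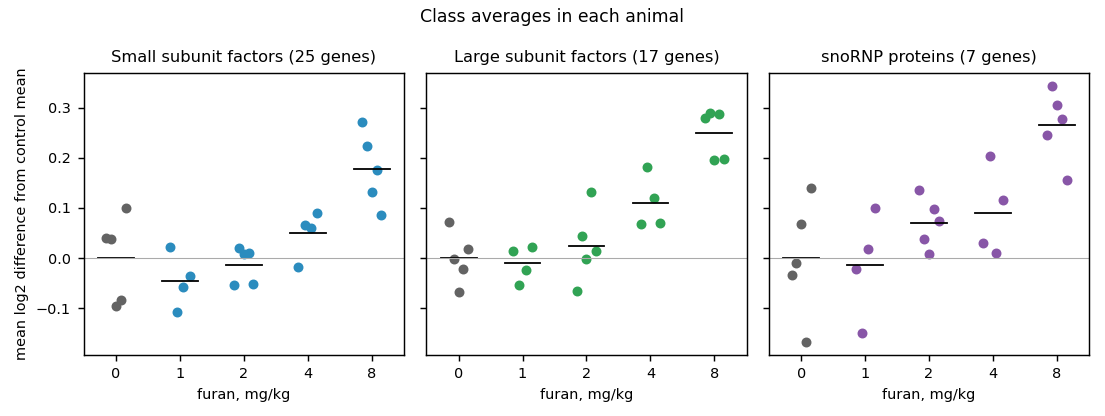
Mean log2 difference from the control mean in each mouse (points) with the group mean (bar), by furan dose in mg/kg, for the 25 small subunit factors, the 17 large subunit factors and the 7 snoRNP proteins. The 8 mg/kg means are 0.177, 0.250 and 0.266, and the 4 mg/kg means are 0.050, 0.110 and 0.090.

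Below 8 mg/kg none of the genes passed the test. The median difference from control was -0.03, 0.02, 0.09 and 0.21 at 1, 2, 4 and 8 mg/kg, and 21, 34, 43 and 42 of the 55 estimates were above 0, against 46.1%, 47.7%, 44.6% and 44.8% of all genes. All 4 comparisons share the same 5 control livers. At 1, 2 and 4 mg/kg 0 of the 55 genes passed (limma), with 0, 3 and 6 at an unadjusted p under 0.05, against 3.52%, 8.66% and 8.9% of all genes. Of all genes, 0%, 0.00503% and 0.0503% passed as higher at those doses, and 0%, 0.00503% and 0.0302% as lower. Set directly against each other, 8 and 4 mg/kg livers differed in 0 of the 55 genes (limma), with 42 estimates above 0, against 50.4% of all genes. Of all genes, 0.171% passed as higher and 0.0352% as lower in that comparison, and 20 of the 55 had an unadjusted p under 0.05, against 8.43% of all genes. The smallest adjusted p in that comparison was that of Nob1 (0.54 ± 0.12, adjusted p = 0.0677, limma), followed by Nop58 (0.52 ± 0.12, adjusted p = 0.0811, limma).

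A straight slope of log2 ratio on dose was above 0 for 26 genes and below 0 for 1 (adjusted p under 0.05, limma), against 5.32% and 5.07% of all genes. This slope uses the same livers as the 8 mg/kg comparison. The genes that passed for the slope but not at 8 mg/kg were 5, Rrs1, Utp20, Gnl3 and Gnl2 upward and Imp3 downward. Rrp12 had a slope of 0.11 ± 0.02 log2 units per mg/kg and Nop58 0.10 ± 0.01. Imp3 had -0.026 ± 0.008 (adjusted p = 0.0447, limma), and this slope did not pass in 7 of the other settings, which are given at the end. The slope passed as above 0 for 11 of 17 large and 8 of 25 small subunit factors.

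The 8 mg/kg difference was also taken within slides. Slides 1, 3, 4 and 5 held both 8 mg/kg and control livers. On slide 1 these were 8 mg/kg replicate 5 and control replicate 4. On slide 3 they were replicates 3 and 2, and on slide 4 replicates 4 and 3, in the same order. Slide 5 held 8 mg/kg replicate 1 and control replicates 1 and 5. The remaining 8 mg/kg liver, replicate 2, lay on slide 2 without a control. Each difference rests on those few mice, and the 55 genes of a slide are not independent. In that order of slides, 44, 41, 47 and 41 of the 55 genes were higher at 8 mg/kg. The shares of all genes were 48.7%, 49.1%, 46.9% and 49.3%. Median differences of the 55 genes were 0.20, 0.16, 0.31 and 0.22. Of the 22 genes that passed, 21 were higher at 8 mg/kg on all 4 slides, against 96.4% of the 845 genes that passed as higher among all genes. Both groups of genes were chosen on these same arrays. The exception was Utp4, whose within-slide differences ran from -0.02 to 0.47. Nop58 differed by 0.73 to 0.89, Ddx21 by 0.63 to 0.76 and Rrp12 by 0.83 to 1.37 on the 4 slides. Imp3 was lower at 8 mg/kg on all 4, by -0.34 to -0.21.

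Markers of cell types and of growth were set beside these values, since in whole liver more RNA per cell and more cells of a type cannot be told apart. At 8 mg/kg 0 of 8 hepatocyte, 0 of 5 measured pancreatic and 0 of 4 measured neutrophil markers passed (limma), with 0 in each at an unadjusted p under 0.05. The pancreas-rich 8 mg/kg liver, replicate 5, had the lowest average over the 55 genes of its group, 0.143 against 0.184 to 0.285 in the other 4. Of 9 measured proliferation markers 1 passed, the replication helicase gene Mcm6, which rose by 0.72 ± 0.19 (adjusted p = 0.0230, limma). All 9 had an estimate above 0, against 44.8% of all genes, with a median of 0.34 against -0.03 for all genes. At an unadjusted p under 0.05, 4 of the 9 passed, against 20.9% of all genes. Mcm6 did not pass without 8 mg/kg replicates 3 or 4, or without control replicates 1 or 5, nor without the pancreas-rich arrays (adjusted p = 0.0671, limma), without slide 3 (adjusted p = 0.114) or with no filter on dim probes (adjusted p = 0.0527). The average of the 9 markers was 0.218 to 0.770 above the control mean in 8 mg/kg livers and -0.283 to 0.373 in control livers. It was -0.038 to 0.240 at 1 mg/kg, -0.224 to 0.859 at 2 mg/kg and -0.247 to 0.289 at 4 mg/kg. The highest average of all livers was that of 2 mg/kg replicate 4. The part of proliferating cells in the rise of the ribosome biogenesis genes was not tested.

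Other probes of the same genes gave a further reading. Of the 55 genes, 15 had in all 18 further probes above the background filter, and all 18 had the same sign at 8 mg/kg as the brightest probe. Of the 9 further probes of genes that passed, 9 were above 0 and 2 passed when tested among 25576 probes: Tsr1 at 0.65 ± 0.13 (adjusted p = 0.0039, limma) and Nip7 at 0.51 ± 0.10 (adjusted p = 0.00405, limma). Sizes differed for some genes. The further Ddx21 probe gave 0.15 ± 0.10 and the brightest 0.68 ± 0.12, and their mean 0.42. For Nolc1 the further probe gave 0.15 ± 0.17 (adjusted p = 0.695, limma) and the brightest 0.42 ± 0.12. In the opposite sense, the further Ncl probe gave 0.99 ± 0.18 (adjusted p = 0.00182, limma) and the brightest 0.21 ± 0.11. The further Mphosph10 probe gave 1.00 ± 0.27 (adjusted p = 0.0282, limma) and the brightest 0.13 ± 0.17, although that further probe was well above background on 19 of 23 arrays only. Npm1 had 3 further probes, from -0.15 to -0.06, beside -0.09 for the brightest. Whether these probes read different transcripts of a gene was not tested.

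**Figure D4:**
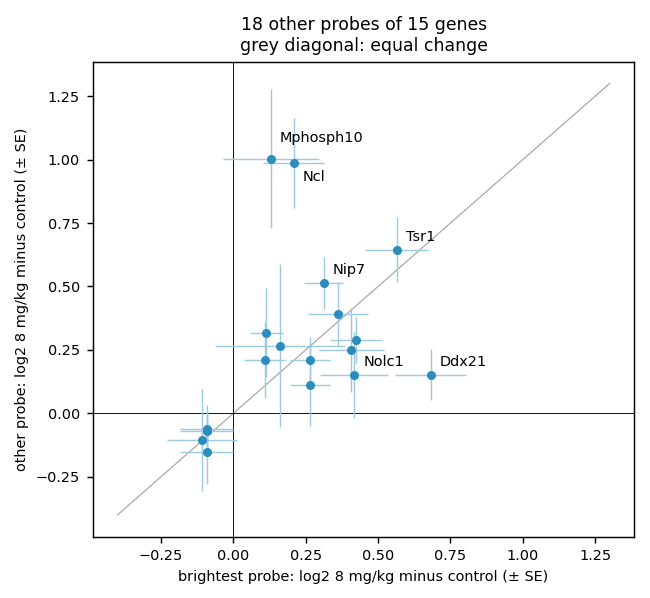
Difference between 8 mg/kg and control livers (log2, with standard error) of the brightest probe (x axis) and of each of 18 further probes (y axis) of 15 genes; the grey diagonal marks equal values. Ncl and Mphosph10 lie far above the diagonal and Ddx21 below it, and no point has opposite signs on the axes.

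Further genes of the pathway, outside the 56, were examined in lists by role. Of 31 other small subunit factors 6 were higher and 0 lower at 8 mg/kg, with a median of 0.07. The largest were the kinase Riok1 (0.47 ± 0.15), Utp25 (0.46 ± 0.14), Pno1 (0.37 ± 0.08), the kinase Riok2 (0.35 ± 0.10) and Nol11 (0.34 ± 0.08). Pno1 and Riok2 act on late pre-40S particles, as do Nob1 and Tsr1 above. The remaining 25 genes of this list did not pass (limma). Among them were Dimt1 (0.11 ± 0.07), Tsr2 (-0.01 ± 0.12), Tsr3 (-0.07 ± 0.05) and Cinp (-0.20 ± 0.11). Of 36 other large subunit factors 6 were higher and 0 lower, with a median of 0.14. These were led by Mak16 (0.54 ± 0.11), the GTPase Gtpbp4 (0.46 ± 0.12), Rbm28 (0.38 ± 0.07), Ppan (0.37 ± 0.11) and Rpf2 (0.34 ± 0.08), the last a partner of Rrs1. Pno1, Nol11, Mak16, Rbm28 and Rpf2 passed whichever single array was left out, whereas Riok1, Utp25, Riok2, Gtpbp4 and Ppan passed in 5, 13, 16, 20 and 13 of the 23 such fits. With slide as a block Riok1 and Ppan did not pass. With no filter on dim probes Riok1, Utp25, Riok2 and Ppan did not pass. Riok1 and Riok2 did not pass with normexp correction, Riok2 and Ppan from the authors' value table, and Riok1 as the mean over probes. Riok1, Utp25, Riok2 and Ppan did not pass without the pancreas-rich arrays, and Riok1, Utp25, Riok2, Nol11 and Gtpbp4 did not pass without slide 3. Among all genes tested 4.25% were higher and 3.76% lower.

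Of 9 measured genes for polymerase I transcription 2 were higher, the subunits Polr1e (0.44 ± 0.10) and Polr1d (0.32 ± 0.07), the second of which polymerase III shares. Both passed whichever single array was left out, but Polr1d gave 0.10 (adjusted p = 0.486, limma) as the mean over its probes. At an unadjusted p under 0.05, 3 of the 9 passed, against 20.9% of all genes. At an adjusted p under 0.05, 4.25% of all genes were higher and 3.76% lower. Of the 12 genes listed under snoRNP assembly, 0 were higher and 1 was lower (limma), Pih1d1 at -0.18 ± 0.05. Their median was -0.08, and 3 had an unadjusted p under 0.05, against 20.9% of all genes. Pih1d1 passed in 13 of the 23 fits that left out 1 array and in 3 of the 11 other settings. Of 13 subunits and cofactors of the RNA exosome, the nuclease that trims precursor ends, 1 was higher, Exosc6 (0.38 ± 0.10). An unadjusted p under 0.05 in either direction was found for 6 of the 13, among them Exosc2 at -0.34 ± 0.12. Exosc6 passed in 17 of the 23 fits that left out 1 array. It did not pass without slide 3, with normexp correction, with no filter on dim probes or from the authors' value table. A list around the small ribosomal particle that binds Mdm2 also held Mdm2 itself, Trp53 and Cdkn2a. Of its 6 genes 1 was higher, Mdm2 (0.66 ± 0.08), a ligase for p53. The particle proteins Rpl5 (0.05 ± 0.09) and Rpl11 (0.02 ± 0.08) did not pass (limma).

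The Myc gene itself had log2 ratios of -2.44, -2.89, -1.71, -2.84 and -3.14 in 8 mg/kg livers, against -4.49, -4.45, -4.33, -3.42 and -3.51 in control livers. All 8 mg/kg livers were above all controls, and the spread among them was wide. The difference was 1.43 ± 0.40 (adjusted p = 0.0303, limma), and within slides it ran from 0.27 to 2.74. It did not pass without 8 mg/kg replicates 1 or 3, or without control replicates 1, 2 or 3. It also did not pass without slide 3 (1.11, adjusted p = 0.122, limma), with normexp correction (0.849, adjusted p = 0.0502), from the authors' value table (0.843, adjusted p = 0.0565) or with no filter on dim probes (adjusted p = 0.0664). Its values at 2 and 4 mg/kg, -4.32 to -2.67 and -4.16 to -2.02, overlapped the 8 mg/kg and the control ranges. Of the 8 measured genes for Myc and its partners, the other 7 did not pass.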

How the data were processed

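Liver RNA of 23 mice was measured on 2-colour arrays with 62976 spots each. Per the file headers, the authors extracted the scans with Agilent Feature Extraction 10.7.3.1, and the deposited processed signals are intensities that the software background-subtracted and dye-normalised. The deposited median signals and local backgrounds are raw intensities, per the file headers, and the other columns used are marks of 0 or 1 for saturation, outliers and signal well above background. The deposited value table holds linear ratios of Cy5 to Cy3 whose making is not given in the sources used here. Their column medians were 0.974 to 0.987, and their log2 values correlated over probes at 0.922 to 0.970 with the values used here and at 0.993 to 0.996 with the normexp alternative, which sets their direction as liver over reference.

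From the processed signals the log2 ratio of Cy5 to Cy3 was taken and corrected by loess on each array (span 0.3, 4 iterations), leaving out control and marked spots. Probes were kept if 4 or more arrays of any group had Cy5 marked well above background, which left 25576 of 55681 probes. Systematic names were matched to GRCm38.p6 symbols (26421 probes, 20022 symbols), each gene took its brightest probe, and 3 values per group were required. Dose groups were compared over all 23 arrays with limma 3.58.1 in R 4.3.3 (18 residual and 2.32 prior degrees of freedom, two-sided, Benjamini-Hochberg over 19899 genes, threshold 0.05), and the code was tested on simulated data. Log2 differences are given with standard errors, and the number of arrays limits their precision. There was no dye swap, so a dye effect of a probe is part of its ratio in every group. The labels call the animals of a group biological replicates.

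The genes, their role groups and the other lists (small and large subunit factors, polymerase I transcription, snoRNP assembly, RNA exosome, Myc and partners, the Mdm2-binding particle, and hepatocyte, pancreas, neutrophil and proliferation markers) were chosen with earlier results of these data known. Described in full were the 12 genes that rose most at 8 mg/kg and the highest and lowest small and large subunit factors. Other lists were named by their members past the threshold, at most 5 a list, and Myc. Replicate numbers of the labels did not pair the animals: same-numbered animals of different groups had deviations from the group means that correlated over genes at a median of 0.0230 (-0.243 to 0.401), against 0.224 (0.0315 to 0.498) for animals on the same slide.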

Additional observations from a re-analysis of the deposited data

Results flagged for a closer look

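In 90 checks of a group for 1 value far from the others, over the genes printed for every animal, Myc and the class averages, 2 values stood apart by Dixon's criterion, where chance gives about 1 in 20. Ddx21 had a log2 ratio of -0.877 in control replicate 3, against -0.578 to -0.475 in the other controls. This control lay farther from the 8 mg/kg livers than the others, and without any single array Ddx21 still passed, with an adjusted p of at most 0.00586 over all 34 other fits (limma). Pes1 had -0.763 in control replicate 1, against -1.35 to -1.19 in the other controls, and its 8 mg/kg difference did not pass in any of the 34 other fits, where its estimate ran from -0.16 to -0.01.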

How the results depend on the processing

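Each result was recomputed under 11 other settings and with each of the 23 arrays left out. Of the 22 genes higher at 8 mg/kg, 8 passed in all 34 of these fits (Nop58, Ddx21, Wdr12, Tsr1, Wdr43, Bysl, Rrp15 and Nip7), and all 22 kept an estimate above 0 in every one. The count of genes higher was 13 with normexp on the median signals, 10 with no filter on dim probes (37163 genes tested), 12 from the authors' value table and 14 without the arrays of slide 3. Grwd1, Polr1a, Nop2, Wdr75, Rrp1b, Ebna1bp2 and Utp4 did not pass with normexp, with no filter or from the authors' value table. Rrp12 and Nob1 were also lost with normexp. Bop1, Nolc1 and Nop56 were lost with no filter and from the authors' value table, and Gar1 and Nhp2 with no filter. Without slide 3 the genes lost were Nop2, Wdr75, Rrp1b, Nolc1, Gar1, Ebna1bp2, Nop56 and Nhp2. With slide as a block the count was 25, the same 22 with Ncl, Gnl2 and Rrs1 added, while 1 gene, Imp3, was then lower. With the replicate number as a block it was 20, without Nhp2 and Utp4, and among the other genes named Riok1 and Pih1d1 no longer passed; this replicate block changed no other call among the genes named at 8 mg/kg. The count was 22 without loess and with eBayes trend and robust settings. It was 21 with quantile normalization between arrays (chosen after seeing the data), without Bop1. As the mean over probes it was also 21, with 19 shared, Grwd1, Nolc1 and Ebna1bp2 lost, and Ncl and Mphosph10 added. Without the pancreas-rich arrays Bop1, Nhp2 and Utp4 were lost. Leaving out 1 array gave 11 to 23 genes higher and 0 to 1 lower at 8 mg/kg. For 8 against 4 mg/kg, 2 genes were higher with slide as a block and 1 without slide 3, and leaving out 1 array gave 0 to 2. At 4 mg/kg 1 gene was higher as the mean over probes. The slope on dose was above 0 for 21 to 27 genes and below 0 for 0 to 1 when 1 array was left out, and it was below 0 for 0 genes with normexp, without loess, with no filter, from the authors' value table, with quantile normalization, without the pancreas-rich arrays and without slide 3. The median of large subunit factors was 0.328 without loess. Medians ran from 0.174 to 0.237 over all 55 genes, 0.119 to 0.183 over small and 0.238 to 0.292 over large subunit factors when 1 array was left out. The share of calls at 8 mg/kg over all genes that were higher was 53%, against 69.4% with normexp and 73.4% without loess. The cause of these changes was not tested. The planned Aquantile step leaves log ratios as they are and was replaced by the quantile setting. The settings without pancreas-rich arrays or slide 3 were also chosen after seeing the data. Utp15 and Utp14a had the largest standard errors at 8 mg/kg, and Utp18 was too dim to measure.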
